A study of Mus musculus with 2 samples.

Results

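Car1-positive erythroid progenitors in the middle of their early maturation were examined in mouse bone marrow, 1558 cells among the 11006 that passed the cell filters. Of these, 677 came from the wild-type library and 881 from the library labelled as a GATA-1 knock-in mutation, which the series title calls 2RA. Both libraries hold bone marrow cells sorted as Lin- Kit+, that is, cells without markers of mature lineages and with the Kit receptor on their surface, read by droplet 3' single-cell RNA sequencing. There was 1 library per genotype. The labels used here give no age, sex, strain or number of mice, and they do not say what 2RA stands for. Every difference below is therefore a difference between these 2 libraries without a replicate check, and no test across samples was possible. The series description states the aim of comparing the makeup of the marrow and the regulation of its genes in mutant and normal mice.

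Red cell progenitors in the bone marrow pass from Gata2-expressing multipotent and early erythroid cells to cells in which GATA-1, with its partner FOG-1 and the factor KLF1, turns on the genes for heme synthesis, the red cell membrane and finally globin. Carbonic anhydrase 1, encoded by Car1, marks this step early, before hemoglobin is made in quantity. GATA-1 is also known to repress Gata2 and Kit as the cells mature, a sequence often called the GATA switch.

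The cells were chosen by measured values. A member had at least 5 UMIs of Car1 per 10000 UMIs of the cell, low levels of megakaryocyte, granulocyte and mast cell genes, and between 2 and 6 UMIs per 10000 of Cpox, Rhd and Ermap together. A UMI is a random barcode by which each captured RNA molecule is counted once. Cpox encodes an enzyme of heme synthesis, Rhd a red cell membrane protein of the Rh complex and Ermap an erythroid membrane protein. Cells under 2 are called immature here and cells at 6 or above maturing. These genes set the membership, so their levels are given as a description and enter no count. Car1 had a median of 31.5 UMIs per 10000 in wild-type members, with a range of 5.30 to 108. In the knock-in members the median was 25.8, with a range of 5.08 to 87.5. Cpox, Rhd and Ermap together had medians of 4.04 and 4.07. Within that sum the libraries were composed differently, with Rhd at 89.1 CPM (the gene's UMIs per 1000000 UMIs of these cells in the library) in wild type and 62.6 in the knock-in, and Ermap at 194 and 243.

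Near the lower limit, 62 wild-type and 66 knock-in cells lay between 1.5 and 2, and 80 and 85 lay between 2 and 2.5. Near the upper limit, 86 and 128 cells lay between 5.5 and 6, and 80 and 105 between 6 and 6.5. The knock-in library was shallower. Its members had a median of 8740 UMIs and 2637 genes against 13029 UMIs and 3344 genes in wild type, while mitochondrial UMIs had a median of 3.32% in both. Of the members, 198 cells (22.5%) entered on a single UMI of the 3 genes, against 79 (11.7%) in wild type. Over the whole libraries, 5526 wild-type and 5480 knock-in cells passed, with 67820569 and 46430512 UMIs. The libraries shared 10 barcodes, none of them among the members.

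The erythroid part of the name of the cells was checked on genes the rule did not use. Klf1, the erythroid activator of globin and heme genes, was detected in 59.3% of wild-type and 65.8% of knock-in members after every cell had been thinned to 4000 UMIs. In granulocyte-like cells without Car1, which should lack the gene, the shares were 1.0% and 1.06%. Those cells had a median of 10751 and 9474 UMIs before thinning. Gata1 was detected in 41.6% and 34.9% of members, against 0.402% and 1.58% of those cells. For Aqp1, the water channel of the red cell membrane, the shares were 58.2% and 56.3% against 1.61% and 0.264%. Thinning left out 55 wild-type and 176 knock-in members with too few UMIs. Before thinning, Klf1 was seen in 84.6% and 81.7% of members, Gata1 in 74.0% and 61.2%, and Aqp1 in 83.9% and 76.8%. All 3 markers stood far above the level in cells that should lack them. This comparison does not check the intermediate part of the name. Thinned Aqp1 shares were 55.1% and 52.6% in immature and 57.8% and 63.6% in maturing cells, near those of the members.

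The upstream DNA of 3 genes is shown because they mark the erythroid state, or its difference between the libraries, and because each carries a GATA motif. The windows are the 250 bases before the start site in RefSeq, build GRCm38.p6, written in the direction of the gene. Klf1 lies on the plus strand at chr8:84901732-84901981. Pklr, the pyruvate kinase of red cells and liver, lies on the plus strand at chr3:89135892-89136141. Slamf1, a surface receptor of stem cells and lymphocytes (CD150), lies on the plus strand at chr1:171766882-171767131. Capitals mark a match, on either strand, to the letters AGATAA or to the same word with a T first (TGATAA), a G last (AGATAG) or both (TGATAG), with overlapping matches counted one by one.
Klf1: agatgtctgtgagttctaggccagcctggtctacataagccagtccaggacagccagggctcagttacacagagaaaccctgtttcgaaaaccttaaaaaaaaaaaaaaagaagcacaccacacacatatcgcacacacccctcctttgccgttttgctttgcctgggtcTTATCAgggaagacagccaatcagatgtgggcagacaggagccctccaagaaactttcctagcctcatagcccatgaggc
Pklr: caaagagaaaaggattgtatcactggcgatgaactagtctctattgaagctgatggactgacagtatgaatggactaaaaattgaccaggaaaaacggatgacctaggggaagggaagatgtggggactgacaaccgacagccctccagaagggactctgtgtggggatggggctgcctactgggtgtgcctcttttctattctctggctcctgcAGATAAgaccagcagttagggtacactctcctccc
Slamf1: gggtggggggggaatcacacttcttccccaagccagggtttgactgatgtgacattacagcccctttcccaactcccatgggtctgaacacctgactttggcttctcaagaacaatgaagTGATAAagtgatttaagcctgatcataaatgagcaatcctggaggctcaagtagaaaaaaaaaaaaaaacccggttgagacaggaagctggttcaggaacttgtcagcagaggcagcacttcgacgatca
The match began 80 bases before the start in Klf1, 35 in Pklr and 130 in Slamf1. The windows of Gata1 and Aqp1 held none of these letters. Such a match is common, since 26.5% of the 32851 windows in the table held at least 1. Among first listed windows, the share was 16.2% for the genes measured in these cells, 24.7% for 89 genes at least 2-fold higher in the knock-in and 18% for 111 genes at least 2-fold lower.

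Against all cells without any Car1 UMI, the genes with the largest excess in the members of both libraries were led by Prss50, a serine protease, Slc25a21, a mitochondrial carrier, and Slc38a5, an amino acid transporter. Prss50 stood at 72.2 CPM in wild-type and 64.7 in knock-in members, against 2.19 and 2.07 in cells without Car1. Pklr stood at 33.4 and 32.8 against 0.748 and 1.51. Sphk1, sphingosine kinase 1, stood at 96.2 and 101 against 3.31 and 4.70. Mt2, a metallothionein, stood at 314 and 176 against 10.7 and 7.64, and was the least alike between the libraries of these 4. These genes were picked for the excess, so it is a description.

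For some genes that the rule did not name the members stood between their neighbours. Sphk1 and Ctla2a are among the genes named for their difference between groups of cells, so their course is a description, and Gata1 did not follow it in the knock-in, with its lowest level of the 3 ranges in the members. Sphk1 went from 10.6 and 16.6 CPM in immature wild-type and knock-in cells, through the members' values above, to 196 and 186 in maturing cells. Ctla2a, an inhibitor of cathepsin-type proteases found in progenitors, went the other way, from 447 and 399 to 56.8 and 52.8 in the members and 10.9 and 13.3 in maturing cells. Klf1 followed the upward course, with 147 and 234 in immature cells, 238 and 282 in the members and 297 and 328 in maturing cells. Gata2 followed the downward one in both libraries. The late genes were nearly silent. Alas2, the erythroid enzyme that starts heme synthesis, had 1 UMI among all wild-type members and 24 among the knock-in members. All 24 lay in 2 cells. Slc4a1, the anion exchanger band 3, had 0 and 6.

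**Figure D1:**
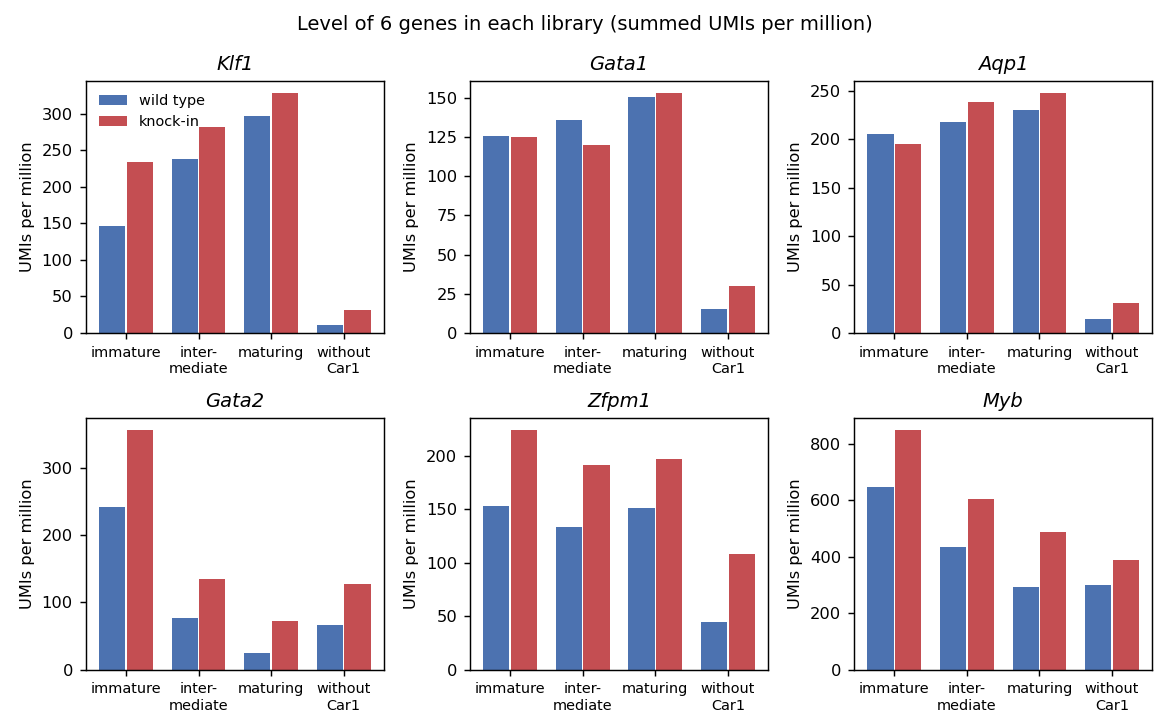
Bars show the level of 6 genes, as CPM, in immature, intermediate and maturing Car1-positive cells and in cells without Car1, for the wild-type library (blue) and the knock-in library (red). Gata2 falls from immature to maturing cells in both libraries and is higher in the knock-in at each step, as is Myb, and Gata1 differs little between the libraries in these ranges.

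The intermediate cells made up 12.3% of the wild-type cells that passed the filters (exact Clopper-Pearson 95% interval 11.4 to 13.1) and 16.1% of the knock-in cells (15.1 to 17.1). As a share of the 3 Car1-positive ranges they were 31.8% (29.8 to 33.8) of 2131 cells and 34.3% (32.5 to 36.2) of 2567 cells, whose intervals overlap. The immature range held 443 and 618 cells, and the maturing range 1011 and 1068. These intervals, and all those below, cover counting error only. When cells with at least 4000 UMIs were thinned to 4000 before the rule was applied, members were 14.9% and 22% of them. Shallower cells were left out there, among them 149 of 443 immature wild-type and 407 of 618 immature knock-in cells. When at least 2 UMIs of Cpox, Rhd and Ermap were asked for, the shares of all passing cells were 10.8% and 12.5%. The knock-in share was thus the higher of the pair under each of these settings, while the size of the gap differed between them.

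For gene levels, UMIs were summed over the members of each library, 9764230 in wild type and 9021921 in the knock-in. Each ratio below is the log2 of the CPM in the knock-in divided by that in wild type, with an exact conditional binomial 95% interval. Of 9432 genes with at least 50 UMIs over both libraries, 121 were at least 2-fold higher in the knock-in (1.28%) and 163 at least 2-fold lower (1.73%). By any amount, 5243 genes were higher (55.6%), and the median ratio over all genes was 0.03. The interval lay above 0 for 1763 of these genes and below 0 for 1221. Most genes were thus within 2-fold between the libraries, though many differed beyond counting error. Any list of genes below is read against these shares.

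The gene that carries the mutation was read first. Gata1 (chromosome X, 7959260 to 7978071, minus strand of mm10) was measured at 136 CPM in wild-type members and 119 in knock-in members, a ratio of -0.18 (-0.30 to -0.07). In immature cells it stood at 125 in both libraries, and in maturing cells at 150 and 153. These counts read the amount of Gata1 RNA and do not check the mutation itself. The level of Gata1 was thus slightly lower in the knock-in in the middle range, with intervals that include no difference in both neighbours.

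Gata2, the factor that precedes GATA-1 in blood progenitors, stood at 76.4 CPM in wild-type members and 135 in knock-in members. The ratio was 0.82 (0.69 to 0.96). In immature cells the levels were 241 and 356, a ratio of 0.56 (0.42 to 0.71), and in maturing cells 25.4 and 71.8, a ratio of 1.5 (1.36 to 1.64). The ratio in maturing cells was above the other two beyond counting error. After thinning, 28.6% and 39.9% of members had a Gata2 UMI, against 4.02% and 7.92% of granulocyte-like cells without Car1. The excess was also seen in cells without Car1, at 66.4 and 127 CPM. That pool is mixed, and its makeup differed between the libraries. It held 1023 wild-type and 412 knock-in granulocyte-like cells, and Aqp1 stood there at 14.5 and 31.2 CPM. The part of cell makeup in this excess was not tested. Among members with 6000 to 14000 UMIs the ratio of Gata2 was 0.23, an alternative added after the data were seen. Depth rose along the ranges, with medians of 4912, 13029 and 22919 UMIs in wild type. In the knock-in the medians were 3274, 8740 and 16418. This window, called matched depth below, may therefore take cells of unlike maturation from the 2 libraries, which was not tested.

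The list of genes known to be lowered as GATA-1 drives maturation, which holds Gata2, went both ways. Of 13 measured, 8 were higher and 5 lower in the knock-in, a share close to the 55.6% of all genes, and their median ratio was 0.10. Myb, a factor that keeps erythroid progenitors dividing, stood at 433 and 603 CPM, a ratio of 0.48 (0.42 to 0.53). Among members of 6000 to 14000 UMIs its ratio was 0.17. Kit, the stem cell factor receptor, was level at 140 and 139, with a ratio of -0.00 (-0.12 to 0.11). Myc, a growth factor-responsive transcription factor, stood at 218 and 217, with a ratio of -0.01 (-0.10 to 0.08). In maturing cells 9 of 13 were higher and the median was 0.21.

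Erythroid transcription factors were mostly a little higher in the knock-in. Of 16 measured, 11 were higher and 5 lower, none of them 2-fold apart, with a median of 0.16. Klf1 (chromosome 8, 84901928 to 84905291, plus strand) stood at 238 and 282 CPM, a ratio of 0.24 (0.16 to 0.32). Its difference was wider in immature cells, which had a median of 4912 and 3274 UMIs per cell, and where the ratio was 0.68 (0.49 to 0.86), and narrower in maturing cells at 0.14 (0.09 to 0.19). Zfpm1, which encodes the GATA-1 partner FOG-1, stood at 133 and 192, a ratio of 0.53 (0.42 to 0.63). It was 0.55 in immature and 0.38 in maturing cells. Lmo2, a bridging protein of the GATA-1 complex, stood at 334 and 305, a ratio of -0.13 (-0.21 to -0.06). Among members with 6000 to 14000 UMIs the median of the 16 was -0.0021, so the list did not keep its direction in that window. Klf1 and Zfpm1 there had ratios of 0.33 and 0.54.

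**Figure D2:**
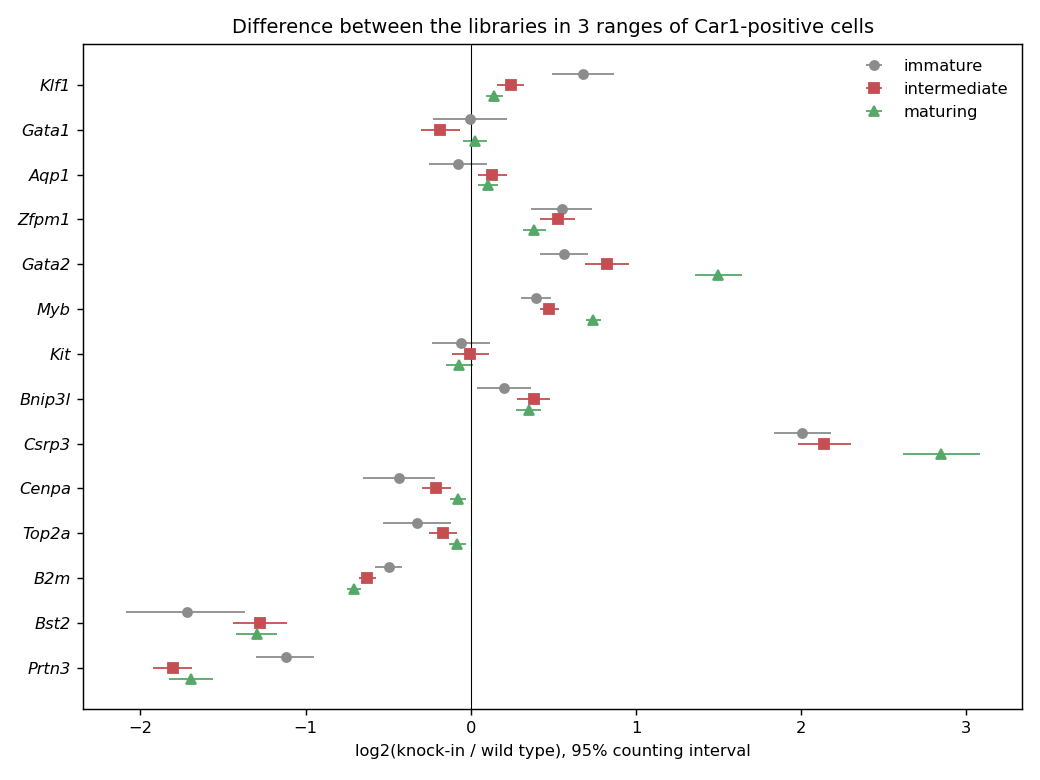
Points show the log2 ratio of knock-in over wild type with its 95% counting interval for 14 genes (vertical axis) in immature (grey), intermediate (red) and maturing (green) Car1-positive cells. Gata2 goes from 0.56 to 0.82 to 1.5, and Klf1 goes from 0.68 to 0.24 to 0.14.

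Genes of early erythroid commitment were mostly a little higher in the knock-in, apart from Apoe. Of 17 measured, 13 were higher and 4 lower, and the median was 0.16. Car2, the second erythroid carbonic anhydrase, stood at 2168 and 2447 CPM, a ratio of 0.17 (0.15 to 0.20). Prdx2, the peroxiredoxin of red cells, stood at 773 and 993, a ratio of 0.36 (0.32 to 0.41). Mns1, a structural protein of cilia and germ cells, stood at 291 and 383, a ratio of 0.40 (0.32 to 0.47). Apoe, apolipoprotein E, stood at 575 and 4.99, a ratio of -6.85 (-7.31 to -6.43), and 37 of 881 knock-in members had a UMI of it against 613 of 677 wild-type members.

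Heme synthesis as a group was level between the libraries. The rule held the members of both libraries to the same range of Cpox, Rhd and Ermap, and Cpox is a gene of this pathway. A level list in these cells is therefore a description. Of 13 measured genes 6 were higher and 7 lower, none 2-fold apart, with a median of -0.03. Urod, the fifth enzyme of the pathway, stood at 141 and 119 CPM, a ratio of -0.25 (-0.36 to -0.13). Single genes, named after their values were seen, lay on both sides. Ppox had a ratio of -0.97 (-1.28 to -0.66), Alas1 of -0.70 (-0.97 to -0.43) and Slc25a37 of 0.37 (0.08 to 0.66). Iron handling was alike, with 6 of 15 genes higher and a median of -0.04. Both lists lie near the median of all genes.

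Of 14 measured genes of the red cell membrane, 9 were higher and 5 lower, and the median was 0.05. Sptb, which encodes a part of the spectrin skeleton under the membrane, stood at 3.69 and 7.87 CPM, a ratio of 1.09 (0.50 to 1.71). That of Sptb was 0.42 among members with 6000 to 14000 UMIs and 0.55 as a mean over cells. Among the 5 lower genes, named after their values were seen, Add2, the beta adducin of the membrane skeleton, stood at 42.8 and 25.2 CPM, a ratio of -0.77 (-1.01 to -0.53). Rhag, the glycoprotein of the Rh complex, stood at 46.2 and 27.5, a ratio of -0.75 (-0.98 to -0.52). Kel, the Kell blood group protein, had a ratio of -0.39 (-0.64 to -0.15). Aqp1 stood at 218 and 238, a ratio of 0.13 (0.04 to 0.22) that went to -0.00944 when cells were thinned. Cd47, the surface signal that restrains phagocytes, stood at 427 and 582, a ratio of 0.45 (0.39 to 0.51).

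Receptor signalling showed level receptors. The erythropoietin receptor gene Epor stood at 62.2 and 63.4 CPM, a ratio of 0.03 (-0.14 to 0.20). Of 14 measured genes of erythropoietin and Kit signalling 10 were higher, 2 of them by 2-fold, with a median of 0.14 that went to -0.024 when cells were thinned.

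Genes of survival and death went both ways. Of 16 measured, 9 were higher and 7 lower, and the median was 0.07. Bnip3l, a receptor for the removal of mitochondria, stood at 151 and 197 CPM, a ratio of 0.38 (0.28 to 0.48). Among 12 measured targets of p53, 10 were higher and 2 lower, and the median was 0.24. Among 4 measured cyclin-dependent kinase inhibitors the one past 2-fold was Cdkn1a, which encodes p21, at 1.64 and 5.76 CPM. That is 16 and 52 UMIs, a ratio of 1.81 (0.98 to 2.72), which was 3.29 among members with little granulocyte RNA. Cdkn1a was also the higher of the pair in cells without Car1, at 11.1 and 29.2.

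Genes of the G2 and M phases of the cell cycle were lower in the knock-in nearly as a whole. Of 23 measured, 22 were lower and 1 higher, Mki67, with a median of -0.25 against 0.03 over all genes. None was 2-fold apart. Top2a, a topoisomerase of dividing cells, stood at 265 and 235 CPM, a ratio of -0.17 (-0.25 to -0.09). Cenpa, a histone of the centromere, stood at 247 and 213, a ratio of -0.21 (-0.30 to -0.12). Ube2c, an enzyme of mitotic exit, stood at 208 and 167, a ratio of -0.32 (-0.41 to -0.22). Mki67 stood at 248 and 257, a ratio of 0.05 (-0.03 to 0.13).

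The G2 and M list had a median of -0.47 in immature and -0.15 in maturing cells. Per cell, its summed level had a median of 12.7 UMIs per 10000 in wild-type and 7.91 in knock-in members. The median ratio was -0.080 when cells were thinned and -0.10 among members with 6000 to 14000 UMIs. S phase genes had a median of -0.03 and none was 2-fold apart, but only 8 of 23 were higher, against 55.6% of all genes. In immature cells 4 of 21 were higher with a median of -0.11, and in maturing cells 6 of 23 with a median of -0.16. Ccnd2, cyclin D2, stood at 139 and 189, a ratio of 0.44 (0.34 to 0.55), and at 0.19 at matched depth.

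**Figure D3:**
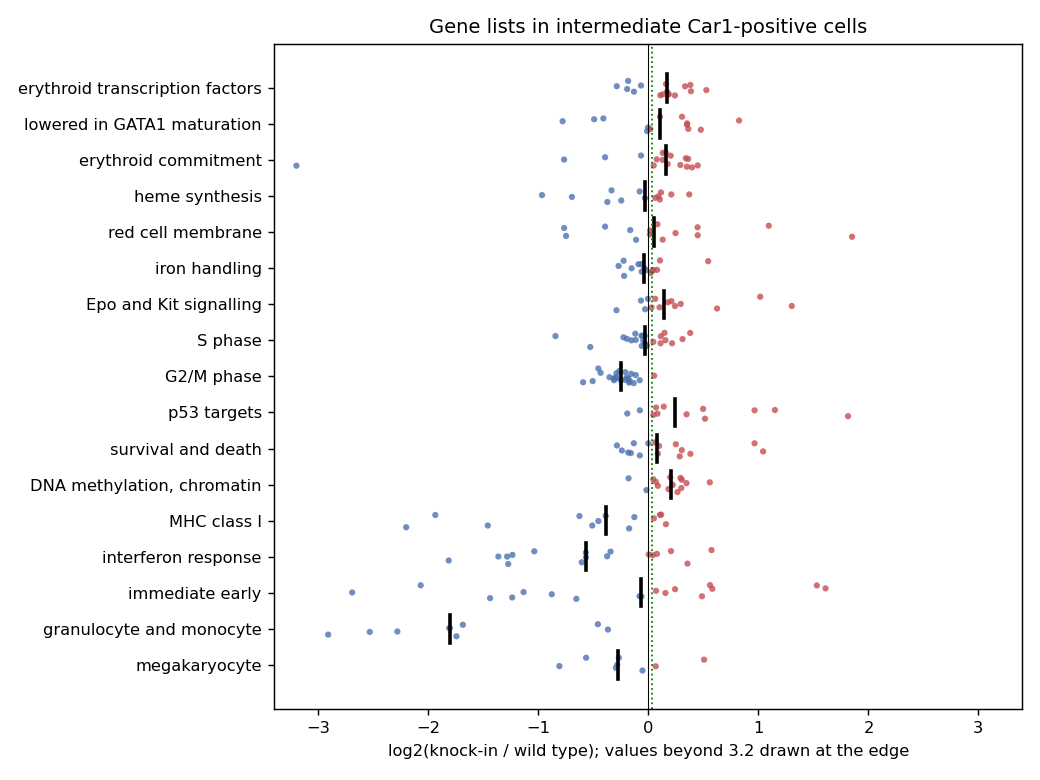
Each dot is the log2 ratio of knock-in over wild type (horizontal axis) of 1 measured gene in intermediate Car1-positive cells, arranged by gene list (vertical axis), red where higher and blue where lower in the knock-in. Black bars are list medians and the dotted green line is the median of all genes at 0.03. The G2/M dots crowd just below 0, the granulocyte and monocyte dots all lie below 0, and Apoe is drawn at the left edge of the erythroid commitment list.

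Most measured genes of MHC class I presentation and of the interferon response were lower in the knock-in. Of 13 measured genes of MHC class I presentation 9 were lower, 3 of them by at least 2-fold, with a median of -0.39. B2m, the light chain of class I molecules, stood at 826 and 535 CPM, a ratio of -0.63 (-0.68 to -0.58). H2-K1, a class I heavy chain, stood at 719 and 505, a ratio of -0.51 (-0.56 to -0.46). H2-Q7 and H2-Q6, near-identical copies among which reads can be split, had ratios of -1.94 and -2.20. Of 3 measured class II genes 2 were higher, with a median of 0.07. Of 17 interferon response genes 11 were lower, 6 of them by at least 2-fold, with a median of -0.57. Bst2, the membrane protein tetherin, stood at 112 and 46.2, a ratio of -1.27 (-1.44 to -1.11). Isg15, a ubiquitin-like protein of that response named after its value was seen, was higher, with a ratio of 0.57 (0.14 to 1.01). B2m and Bst2 were also lower in cells without Car1, at 882 and 659 and at 141 and 42.5.

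Immediate early genes went both ways. Of 17 measured, 8 were higher and 9 lower around a median of -0.06, and 2 were at least 2-fold higher and 5 at least 2-fold lower. Nfkbia, the inhibitor of NF-kappa-B, stood at 59.5 and 182 CPM, a ratio of 1.61 (1.47 to 1.75). Ier3, a stress-induced survival gene, stood at 10.9 and 31.4, a ratio of 1.53 (1.20 to 1.87). Fosb, a part of the AP-1 factor, stood at 147 and 62.4, a ratio of -1.24 (-1.38 to -1.10). Dusp1, a phosphatase of MAP kinases, stood at 61.3 and 27.9, a ratio of -1.14 (-1.35 to -0.92). At matched depth, again members with 6000 to 14000 UMIs, the ratio of Ier3 was 0.81, that of Fosb -2.16 and that of Dusp1 -1.73. These genes are known to respond to cell handling as well as to signals, and handling cannot be told apart from genotype with 1 library each.

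Regulators of DNA methylation and chromatin were slightly higher, in 12 of 14 measured genes, with a median of 0.21 and none 2-fold apart. Ezh2, the methyltransferase of histone H3 lysine 27, stood at 178 and 214 CPM, a ratio of 0.26 (0.17 to 0.36). Dnmt1, the maintenance DNA methyltransferase, stood at 123 and 127, a ratio of 0.04 (-0.07 to 0.16). Glycolysis had 6 of 15 genes higher and 1 past 2-fold. That was Eno1, enolase 1, at 145 and 63.2, a ratio of -1.20 (-1.34 to -1.05), and it was lower in cells without Car1 too, at 189 and 66.5. Metallothioneins Mt1 and Mt2 had ratios of -0.52 and -0.83.

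The genes farthest apart were named by the bound of the interval, 12 in each direction. Among those higher in the knock-in, Hes1, a repressor driven by Notch signalling, stood at 2.25 and 30.5 CPM, a ratio of 3.76 (3.13 to 4.46). Csrp3, a muscle LIM protein, stood at 41.5 and 183, a ratio of 2.14 (1.98 to 2.30). Slamf1 stood at 4.61 and 22.6, a ratio of 2.29 (1.82 to 2.79). At matched depth the ratios of Hes1, Csrp3 and Slamf1 were 4.36, 1.55 and 1.93, and that of Apoe was -8.26. Trnp1, a nuclear protein studied in neural progenitors, had 0 UMIs in wild-type members and 124 in knock-in members. With a floor of 3 UMIs in the wild-type library, this is a log2 ratio of 5.48, a set value and not a bound.

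The remaining genes of that side were Ccnb1ip1, Inpp4b, Slc7a8, Sapcd1 and 4 globin genes. Ccnb1ip1, a ubiquitin ligase of meiosis, had 13 and 276 UMIs. Inpp4b, a phosphoinositide phosphatase, had 5 and 115. Slc7a8, an amino acid transporter, had 12 and 123, and Sapcd1 had 76 and 349. These 4 genes were also rare in wild-type immature cells, at no more than 12.5 CPM.

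Among those lower in the knock-in after Apoe, Gm42047, a long noncoding RNA, had 325 UMIs in wild-type members and 0 in knock-in members. With a floor of 3 UMIs this is a log2 ratio of -6.65, again a set value. Pnp2, a purine nucleoside phosphorylase, had 105 and 1 UMIs. Rpgrip1, a protein of the photoreceptor cilium, had 166 and 5. Slc1a5, a glutamine transporter, stood at 35.7 and 4.32 CPM, a ratio of -3.05 (-3.56 to -2.57). Usp50 stood at 99.0 and 18.6, a ratio of -2.41 (-2.66 to -2.17). Hist1h2ap, Gm10076, Gstp1 and H2-Q6 were 4 more of the 12, and reads of these genes may be split with near-identical copies, so their levels are uncertain. F13a1 and Ly6c2, genes of monocytes, complete the side.

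**Figure D4:**
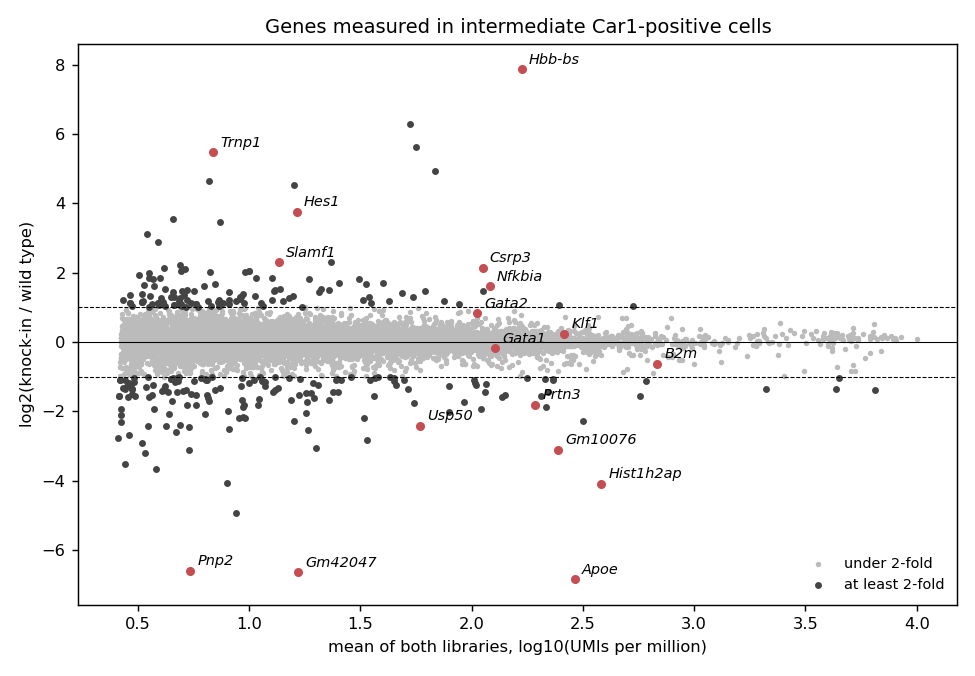
Each point is 1 of the 9432 genes measured in intermediate Car1-positive cells, with its mean level on a log10 axis and its log2 ratio of knock-in over wild type; dashed lines mark 2-fold and named genes are red. Most genes lie near 0, with 121 above the upper dashed line and 163 below the lower one; Trnp1 and Gm42047 are drawn at their floor of 3 UMIs.

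The differences were mostly shared with the neighbouring cells of the same libraries. Of the 121 higher genes 111 were measured in maturing cells, where 108 were higher and 80 at least 2-fold higher, against 2.79% of all genes there. In immature cells 66 were measured, of which 64 were higher and 34 by 2-fold, against 0.799% of all genes. In cells without Car1 113 were measured, of which 106 were higher and 44 by 2-fold, where 2.42% of all genes were 2-fold higher. Of the 163 lower genes 147 were measured in maturing cells, where 145 were lower and 107 by 2-fold, against 1.87% of all genes there. In immature cells 96 were measured, of which 95 were lower and 65 by 2-fold, against 1.51% of all genes. In cells without Car1 158 were measured, of which 140 were lower and 67 by 2-fold, where 1.86% of all genes were 2-fold lower. These cells come from the same 2 libraries, so a shared direction is no replicate of the genotypes.

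Apoe showed the neighbours' values most plainly. It stood at 1602 CPM in immature, 575 in intermediate and 142 in maturing wild-type cells. In the knock-in it stood at 59.4, 4.99 and 1.99. Apoe was detected in 75.6% of thinned wild-type members and in 2.13% of knock-in members. Csrp3 likewise fell along the ranges in both libraries, from 134 to 41.5 to 7.89 in wild type and from 538 to 183 to 56.7 in the knock-in. For both genes the course along the ranges went the same way in the 2 libraries, at different levels.

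Genes of other cell types were read as lists, with the genes of the selection rule left out. All 9 measured genes of granulocytes and monocytes were lower in the knock-in, 7 of them by at least 2-fold, with a median of -1.81. Over 17 genes of the list the summed level was 992 CPM in wild-type and 493 in knock-in members, with 1 gene, Ltf, at 0 UMIs in wild type. Plac8 alone stood at 428 and 332 CPM within these sums, a ratio of -0.37 (-0.44 to -0.30). In granulocyte-like cells without Car1 the sum was 19237 and 17762. There were 1023 such cells in the wild-type library and 412 in the knock-in library. Prtn3, a granule protease, stood at 300 and 85.8 CPM, a ratio of -1.81 (-1.92 to -1.69). The list was lower in the members of the library with fewer granulocyte-like cells, and the part of RNA from those cells in the members was not tested.

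Per cell, these 17 genes together reached a median of 6.11 UMIs per 10000 in wild-type members, with a highest value of 135. In knock-in members the median was 3.91 and the highest value 61.5. A level of at least 10 was found in 232 wild-type members (34.3%) and 251 knock-in members (28.5%). These cells were shallower than the rest, with median UMIs of 7107 against 15095 in wild type and 3914 against 12011 in the knock-in. They also had less Car1, with medians of 25.3 against 34.7 and 16.2 against 29.0. Their Gata2 was higher, with medians of 1.19 against 0.29 and 2.87 against 0.82. Members under 10, called members with little granulocyte RNA here, thus had more UMIs, more Car1 and less Gata2 in both libraries. Plac8 gave 4181 of the 9687 UMIs of the 17 genes in wild-type members and 2993 of 4452 in knock-in members. The split therefore rests to a large part on 1 gene, and a split without Plac8 was not made. The stem and multipotent list was also lower under 10, with medians of 3.79 against 13.5 in wild type and 4.96 against 21.6 in the knock-in. Among members with little granulocyte RNA Gata2 had a ratio of 0.85, close to the value over all members.

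**Figure D5:**
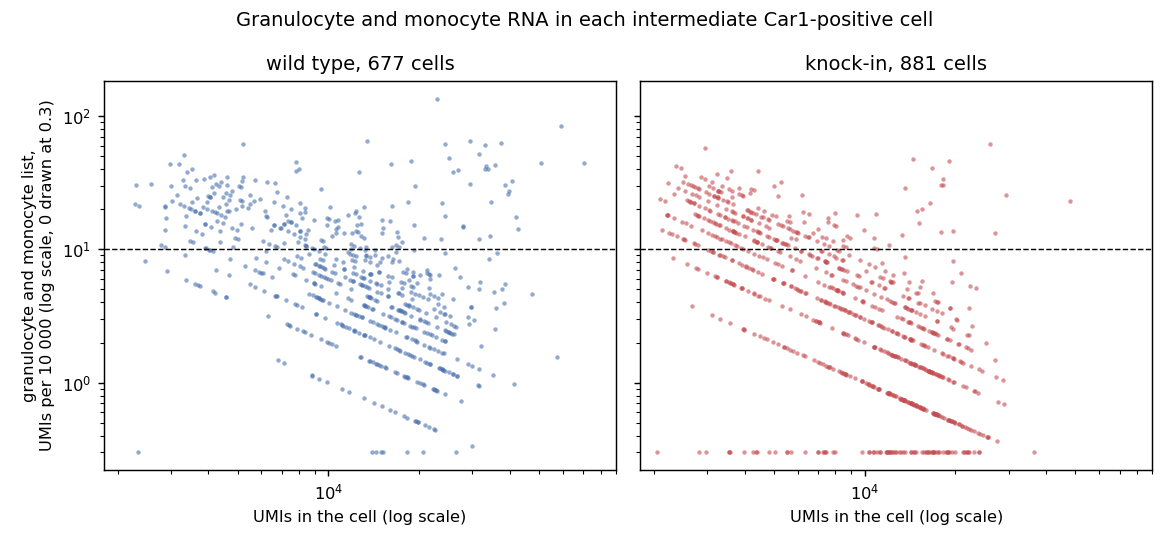
Each point is 1 intermediate Car1-positive cell, with its UMIs on a log axis and the summed level of 17 granulocyte and monocyte genes per 10000 UMIs on a log axis, for 677 wild-type cells (left) and 881 knock-in cells (right); the dashed line marks 10. Cells above the line are mostly shallow in both libraries, and the stripes are cells with the same small number of UMIs of these genes.

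Other lists were small. Of 4 measured mast cell and basophil genes 3 were higher, among them Il1rl1, the receptor for interleukin 33, at 22.4 and 48.4 CPM, a ratio of 1.11 (0.87 to 1.35). Slc18a2, a monoamine transporter, stood at 8.71 and 19.8, a ratio of 1.19. At matched depth both were under 2-fold, at 0.92 and 0.74. The summed level of 16 genes of that list was 70.0 and 101 CPM, with 3 genes at 0 UMIs in each library. Of 8 megakaryocyte genes 6 were lower, with a median of -0.28 and sums of 168 and 150 over 19 genes. Stem and multipotent cell genes were split, 7 higher and 7 lower, though Sox4, a factor of early progenitors, stood at 122 and 211, a ratio of 0.78 (0.68 to 0.89). Among members with 6000 to 14000 UMIs the ratio of Sox4 was 0.17.

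Most globin UMIs of the knock-in members lay in 1 cell. At least 1 globin UMI was seen in 77 wild-type members (11.4%) and 292 knock-in members (33.1%). Hbb-bs, the main adult beta globin gene, had 14 UMIs in wild-type and 3013 in knock-in members, and Hba-a1, an alpha globin gene, had 42 and 1191. Globin genes are near-identical copies, so reads can be split among them. A single knock-in cell held 5752 of the 6148 globin UMIs of all knock-in members, at 3441 per 10000 of its own UMIs. The next highest knock-in member had 7.23 per 10000 and the highest wild-type member 4.84. Without that cell Hbb-bs stood at 1.43 and 12.9 CPM and Hba-a1 at 4.30 and 17.7. After thinning, Hbb-bs was detected in 0.482% of wild-type and 7.09% of knock-in members, against 0.803% and 5.28% of granulocyte-like cells without Car1. The wild-type share lies below that of cells that should lack the gene and is read as background. In the knock-in it lies a little above, a gap that was not set against counting error. The part of free RNA in the knock-in share was not tested.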

How the data were processed

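Sorted Lin- Kit+ marrow cells were read by droplet 3' single-cell RNA sequencing, with 1 library per genotype. The authors deposited raw UMI counts from Cell Ranger 3.1.0, per the file headers. The build was mm10, per the submitters' processing notes. How barcodes were chosen is not given in the sources used here.

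Cells needed 500 genes or more, 2000 UMIs or more and a mitochondrial share of no more than 10%; 23.0% of wild-type and 11.4% of knock-in barcodes were over the mitochondrial limit. The selection further asked for under 10 UMIs per 10000 of Pf4, Itga2b, Cavin2, Treml1 and Rab27b, under 50 of Mpo and Elane, and under 5 of Cpa3, Ms4a2 and Fcer1a. Granulocyte-like cells had at least 50 of Mpo and Elane and no Car1 UMI. Free RNA was not removed, and doublets were left out only as an alternative, with Scrublet in scanpy 1.11.5. Counts were summed per library (numpy 2.4.6, scipy 1.17.1), and the ratio script was tested on simulated data. Gene positions come from GENCODE M21, in which 31011 of 31053 gene IDs were found, and upstream sequences from RefSeq (GRCm38.p6).

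The cells, gene lists and tests were chosen with earlier results of these data known. Named genes were the markers and selection genes; the 12 in each direction with the interval bound farthest from 0 and 100 UMIs or more on the higher side, leaving out mitochondrial, ribosomal protein, sex-linked marker and selection genes; from each list the 4 most abundant members and those at least 2-fold apart at 100 UMIs; and, as descriptions, the genes highest over cells without Car1 and those that move most along the ranges. The text prints part of them, and a few items are not reported here. Alternatives changed thinning, the Car1 minimum, the Cpox, Rhd and Ermap range, the cell filter, doublets, scaling, the UMI minimum, the weight of cells and the fold. Requiring 2 UMIs of the 3 genes, matched depth and little granulocyte RNA were added after the data were seen.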

Additional observations from a re-analysis of the deposited data

Results flagged for a closer look

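For 3 named genes the difference between the libraries had opposite directions in neighbouring ranges, each with an interval that leaves out 0. The differences between ranges were not tested. Fcer1g, the gamma chain of Fc receptors, had a log2 ratio of -0.56 (-0.85 to -0.28) in intermediate cells and 0.94 (0.56 to 1.32) in immature cells. In the intermediate cells 3 wild-type cells held 18.9% of its wild-type UMIs. Hspa5, the chaperone BiP, had a ratio of 0.0903 (0.02 to 0.17) in intermediate cells and -0.17 (-0.32 to -0.01) in immature cells. Ube2c had a ratio of -0.32 (-0.41 to -0.22) in intermediate cells and 0.10 (0.04 to 0.15) in maturing cells.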

How the results depend on the processing

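With 1 library per genotype there is no replicate check, and the knock-in members are shallower than the wild-type members. The log2 ratio of the shares of cells was 0.39, and it was 0.56 with thinned cells, 0.57 with a stricter cell filter and 0.20 with at least 2 UMIs of the selection genes. The thinned setting and the stricter filter took shares of fewer cells, those that met their own limits. Counts of genes at least 2-fold higher and lower were 121 and 163. They were 73 and 96 with thinned cells, 62 and 107 among members with 6000 to 14000 UMIs, 254 and 283 with a minimum of 20 UMIs, 41 and 77 with 200, and 437 and 425 at 1.5-fold.

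The median of the erythroid transcription factors was 0.12 with thinned cells, 0.13 with the stricter filter, 0.13 with 2 UMIs, 0.13 when centred on the median gene and -0.0021 at matched depth. That of the genes lowered in GATA-1 maturation was 0.22 with thinned cells, 0.15 in the narrower range, 0.025 with the stricter filter, 0.29 without doublets, 0.051 with 2 UMIs, 0.046 at matched depth, 0.38 with little granulocyte RNA and 0.34 as a mean over cells. Heme synthesis had -0.13 with thinned cells, 0.071 at matched depth and 0.015 with 20 UMIs. The G2 and M list had -0.080 with thinned cells, -0.20 with the stricter filter, -0.20 with 2 UMIs, -0.10 at matched depth, -0.21 with little granulocyte RNA, -0.36 as a mean over cells and -0.28 when centred.

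A direction was counted as turned where the main interval of a gene left out 0, or where at least 66.7% of a list lay on one side. With thinned cells these were erythropoietin and Kit signalling (-0.024), the kinase inhibitors (-0.060), Aqp1 (-0.00944), Hspa5 (-0.000486) and Fcer1g (0.00470). At matched depth they were the kinase inhibitors (-0.12), Cdk6 (-0.046) and Fcer1g (0.81). Fcer1g was also 0.0594 without doublets, 0.63 with little granulocyte RNA and 0.27 as a mean over cells, the lymphoid list 0.39 with little granulocyte RNA, and in the narrower range the megakaryocyte list was 0.12 and Mef2c 0.00466. Over the 80 genes tried under the alternatives, 930 values stayed within the interval of the main value, 181 moved and 9 turned. Outside that count, 21 values of 8 genes whose main interval included 0 changed sign, such as Mki67 at -0.13 as a mean over cells and Ctla2a at 0.24 in the narrower range. The cause was not tested. No paired analysis was possible because each genotype has 1 library.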

Other observations

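Several of the genes farthest apart lie close together on chromosome 14 (mm10). Ccnb1ip1 (50789248 to 50807732) and Slc7a8 (54722209 to 54781946) were higher in the knock-in, and Pnp2 (50955992 to 50964749) and Rpgrip1 (52110704 to 52163546) were lower. Over all genes measured in the members, 14 of 319 on chromosome 14 were at least 2-fold apart (4.39%). The share was highest on chromosome 8, at 31 of 518 (5.98%), and next on chromosome 13 (5.41%), and lowest on chromosome 6 (1.34%). On chromosome 7, Slc1a5 (16781340 to 16798274) and Apoe (19696109 to 19699188), both lower in the knock-in, lie within one stretch. The positions were looked at after the values were seen, and no test was made of them.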
